A study of Mus musculus with 24 samples.

Results

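Tumours grown from CT26 cells that had been kept in the PMS2 inhibitor NP1867 were compared with tumours grown from CT26 cells kept in its solvent, DMSO, in mice that received no checkpoint blockade. CT26 is a colon carcinoma line of BALB/c mice, and the cells were injected under the skin of BALB/c mice with an intact immune system. The NP1867 isotype group held 6 tumours from cells cultured for 40 weeks with 0.5 uM NP1867, and the DMSO isotype group held 6 tumours from cells cultured for 40 weeks with DMSO. Mice of both groups received 4 doses of 5 mg/kg of a rat IgG2a isotype control antibody, and tumours were collected 24 hours after the last of these, on day 19. These 12 of the 24 tumours of the series were chosen by their titles, which name the cell treatment and the antibody. The other 12 tumours, 6 NP1867 anti-PD-1 and 6 DMSO anti-PD-1, came from mice given a rat IgG2a antibody against PD-1 at the same dose and times, and serve below as a second set of tumours from the same kinds of cells. Each tumour is named by the number in its title. The question was what long inhibition of PMS2 in the cancer cells does to the immune expression of the tumour when PD-1 is not blocked.

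PMS2 is a subunit of the enzyme complex of DNA mismatch repair that cuts the new strand so that a copying error can be removed. Cells without mismatch repair collect small insertions and deletions in short repeats, and shifts of the reading frame can give rise to peptides that T cells recognise. In patients, colon cancers without mismatch repair often hold many T cells and express genes induced by interferon, and many respond to blockade of PD-1. A tumour measured whole contains cancer cells, leukocytes, fibroblasts and vessels, and its RNA sums over all of them.

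The panel counted RNA of immune and cancer genes in sections of formalin-fixed tumours, and the values are log2 of scaled counts. Of 750 genes, 600 were tested, those whose log2 values averaged log2 of 20 or more over the 24 tumours. The counts behind the values summed to between 245260 and 429935 in NP1867 isotype tumours, against 62699 to 489839 in DMSO isotype tumours. DMSO isotype tumours 6 and 23 had fewer than 200000 counts, with 90640 and 62699, and no NP1867 isotype tumour did. Tumour 23 stood apart: it had the highest or the lowest value of its group in 409 of the 600 genes, 68.2%, and a median correlation of 0.866 with the other DMSO isotype tumours, where the other 11 tumours had 0.934 or more with their own group. Without tumours 6 and 23 the median SD of a gene in DMSO isotype tumours was 0.28 on the log2 scale (n = 4), against 0.54 with them and 0.46 in NP1867 isotype tumours. For many lists and genes below the value without these tumours is also given. Where it is not given, the value may still have moved. The fit without tumours 6 and 23 also left out DMSO anti-PD-1 tumours 11 and 37, which had fewer than 200000 counts too. The labels do not say how many separate cultures of cells each arm came from, so a p value here measures the spread between tumours, and the drug and a chance difference between cultures cannot be told apart. Fewer cells of a type and less RNA per cell cannot be told apart in whole tumours. Pms2 and B2m were not analysed here, and inhibition of PMS2 in the cells was not checked.

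Spn fell in NP1867 tumours. It encodes CD43, a long, heavily sialylated surface protein of T cells and most other leukocytes, which in humans also occurs in some colon cancers. The lowest, median and highest log2 values of Spn were 7.85, 7.99 and 8.24 in NP1867 isotype tumours, against 8.35, 8.66 and 8.73 in DMSO isotype tumours. Every NP1867 tumour lay below every DMSO tumour, as the plot of lead genes by tumour shows. The means were 8.0 ± 0.15 in NP1867 tumours and 8.61 ± 0.13 in DMSO tumours (SD, n = 6 each), a level 1.52-fold lower. The log2 fold change was -0.60 (SE 0.11, 95% interval -0.83 to -0.38), with an adjusted p = 0.0067 in limma and an exact permutation p of 0.00216, two-sided, the smallest that 6 against 6 tumours can give. Spn was the 1 gene called among the 600 at an adjusted p under 0.05 (0.167%), and 0 genes were called higher. It was also called with each of the 12 tumours left out in turn (adjusted p from 0.0024 to 0.0323) and without DMSO tumours 6 and 23 and the other tumours under 200000 counts (-0.65, adjusted p = 0.00864). The call was lost after each tumour was centred on its median (-0.76, adjusted p = 0.12), after quantile normalisation (-0.79, adjusted p = 0.0944) and in a fit of only these 12 tumours (adjusted p = 0.439).

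**Figure D1:**
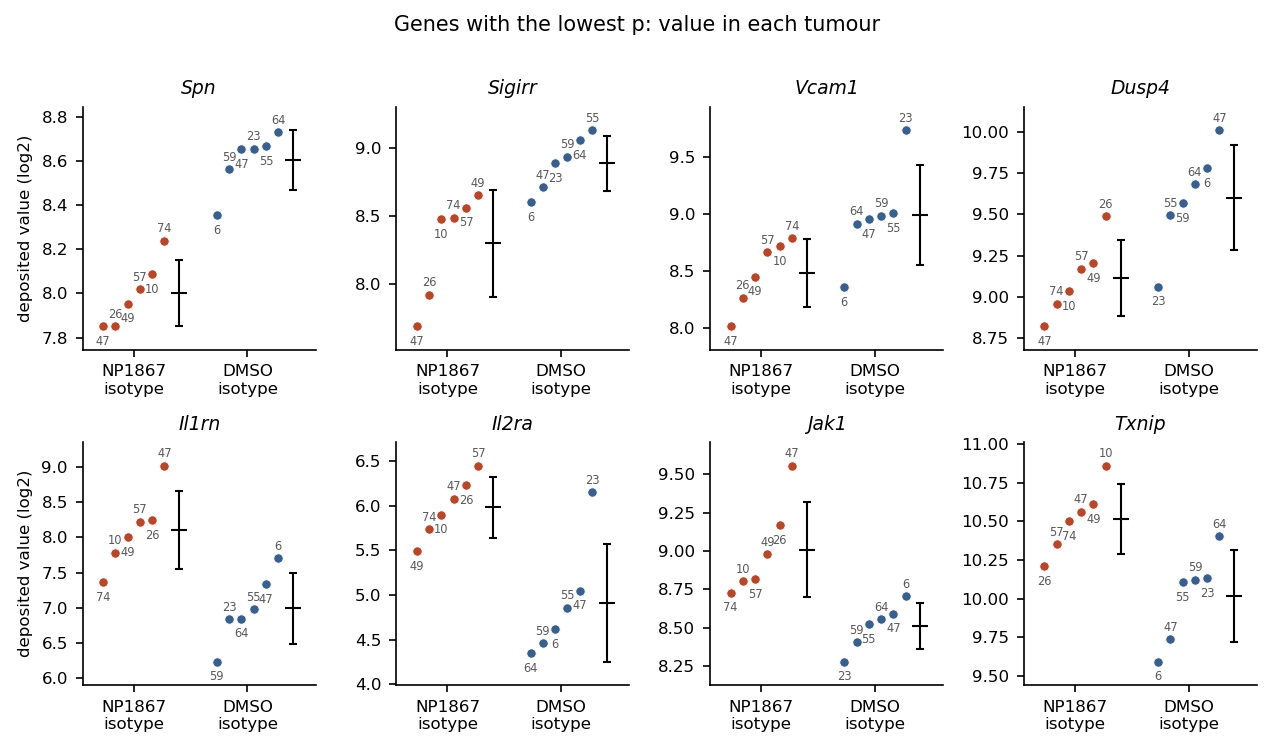
Deposited log2 value of 8 genes among those with the lowest p (vertical axis) in each NP1867 isotype tumour (left, red) and DMSO isotype tumour (right, blue), with the tumour's number beside its point; the bar is the mean with 1 SD (n = 6). The groups do not overlap for Spn and Jak1, and the other 6 genes overlap by 1 or more tumours.

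No other leukocyte gene passed with Spn. Ptprc, which encodes CD45, the general surface marker of leukocytes, had values of 7.80, 8.77 and 9.74 in NP1867 tumours (lowest, median and highest), against 8.12, 8.74 and 9.13 in DMSO tumours. Its log2 fold change was 0.12 (SE 0.28, adjusted p = 0.92 in limma), or 0.30 without tumours 6 and 23. Of the 8 tested leukocyte genes, 1 was lower with an unadjusted p under 0.05, which was Spn, and 5 had positive values, among them the selectin ligand Selplg at 0.40 and Cd48 at 0.39. Cd53, a leukocyte tetraspanin, was at -0.32. The mean log2 level over these 8 genes ran from 6.88 to 8.18 in NP1867 tumours and from 6.98 to 7.99 in DMSO tumours. With Ptprc as a covariate Spn kept its call, as 1 of 2 genes called.

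At an unadjusted p under 0.05 there were 46 genes (7.67%), of which 29 were higher (4.83%) and 17 lower (2.83%) in NP1867 tumours. After centring each tumour on its median this split was 19 higher (3.17%) and 40 lower (6.67%), and after quantile normalisation 28 higher and 39 lower. Without the tumours under 200000 counts it was 79 higher (13.2%) and 14 lower (2.33%). Over the 600 genes the median log2 fold change was 0.10, against -0.06 after centring, -0.03 after quantile normalisation and 0.25 without the tumours under 200000 counts, so values of that size lie near the middle of the panel. In the plot of all genes Spn lies far above the rest.

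**Figure D2:**
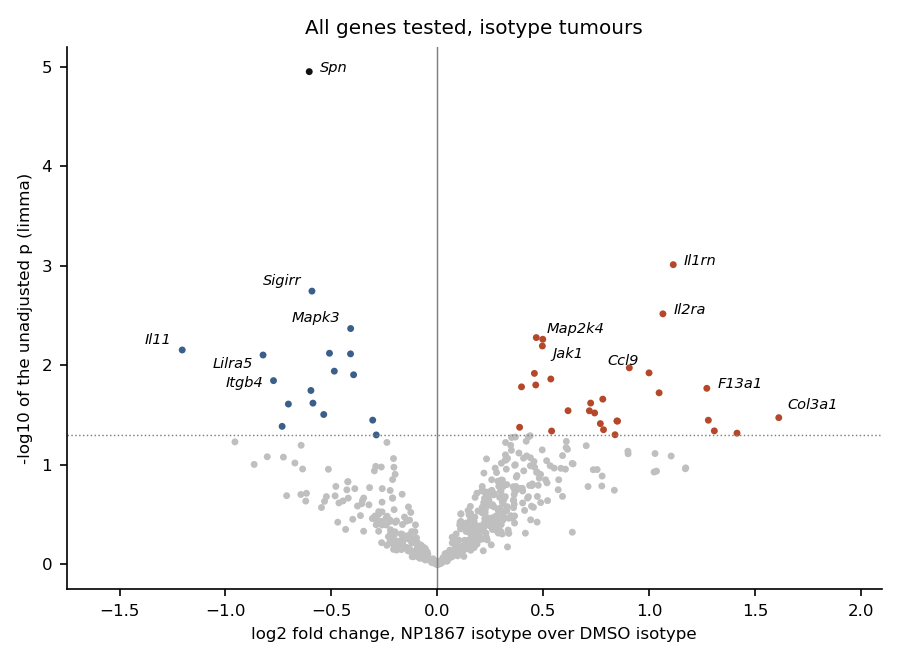
Log2 fold change of each of the 600 genes, NP1867 isotype over DMSO isotype (horizontal axis), against -log10 of its unadjusted p in limma (vertical axis); the dotted line marks the unadjusted threshold of 0.05. Black is the gene with an adjusted p under 0.05 (Spn), red and blue are genes above the line that were higher (29) or lower (17) in NP1867 tumours, counting Spn among the lower.

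Il1rn and Sigirr, which restrain interleukin 1 signals, followed Spn by p, and neither passed. With array weights Il1rn (adjusted p = 0.0442 in limma), Sigirr (adjusted p = 0.0495) and Il2ra (adjusted p = 0.0393) were among 13 genes called, and Sigirr was also called with Ptprc as a covariate (adjusted p = 0.0212). Il1rn encodes the interleukin 1 receptor antagonist, which blocks interleukin 1. Its values were 7.36, 8.11 and 9.02 in NP1867 tumours (lowest, median and highest), against 6.24, 6.91 and 7.70 in DMSO tumours. All 6 NP1867 tumours lay above the DMSO mean, and the groups overlapped. The log2 fold change was 1.11 (SE 0.30, adjusted p = 0.291 in limma), a mean level 2.17-fold higher. Sigirr encodes a receptor of the interleukin 1 receptor family that dampens signals of that family. It had 7.68, 8.48 and 8.66 in NP1867 tumours, against 8.60, 8.91 and 9.13 in DMSO tumours, and NP1867 tumour 49 alone lay above the lowest DMSO tumour. Its log2 fold change was -0.59 (SE 0.17, adjusted p = 0.358).

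Il2ra encodes CD25, the high-affinity chain of the interleukin 2 receptor, carried by regulatory T cells and activated T cells. It had 5.49, 5.99 and 6.45 in NP1867 tumours, against 4.35, 4.74 and 6.15 in DMSO tumours. All DMSO tumours but number 23 lay below every NP1867 tumour, and tumour 23 was at 6.15 on 13 counts. The log2 fold change was 1.07 (SE 0.32, adjusted p = 0.393), and 1.30 without the tumours under 200000 counts (adjusted p = 0.134). Il1b, which encodes interleukin 1 beta itself, was at 0.72 (adjusted p = 0.571), with the highest values in NP1867 tumours 47 and 26. Il11, a cytokine of the interleukin 6 family made by stromal and cancer cells, had 3.06, 3.42 and 4.42 in NP1867 tumours, against 3.35, 4.79 and 6.62 in DMSO tumours. Its log2 fold change of -1.20 (adjusted p = 0.393) became -0.66 without tumours 6 and 23. Among inflammatory cytokines and parts of the NF-kB pathway, 3 of 33 tested genes were higher and 1 lower at an unadjusted p under 0.05, with a median log2 fold change of 0.05 that was -0.10 after centring and 0.17 without tumours 6 and 23. The remaining higher gene was Ikbkb, a kinase that frees NF-kB, at 0.40 (adjusted p = 0.463), which was at 0.19 without tumours 6 and 23.

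Kinases and other parts of cytokine and growth factor signalling were spread to both sides. Of 37 tested genes of the JAK-STAT and MAP kinase list, 4 were higher and 3 lower at an unadjusted p under 0.05, and 27 had positive values with a median of 0.15, which was -0.01 after centring. Jak1, the kinase shared by interferon and many interleukin receptors, was 1 of 2 genes (0.333%) whose groups did not overlap, Spn being the other. It had 8.73, 8.90 and 9.55 in NP1867 tumours, against 8.28, 8.54 and 8.70 in DMSO tumours. Its log2 fold change was 0.50 (SE 0.17, adjusted p = 0.393 in limma, exact permutation p = 0.00216), 0.49 without tumours 6 and 23, and 0.34 after centring. The lowest NP1867 tumour and the highest DMSO tumour were thus close, at 8.73 against 8.70.

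Stat5b, a transcription factor activated downstream of JAK kinases, was at 0.54 (adjusted p = 0.449). Map2k4, which activates the stress kinases JNK and p38, was at 0.47, and Mapkapk2, a kinase below p38, at 0.46. Without tumours 6 and 23 they were at 0.23 and 0.22. On the lower side, Mapk3, which encodes the kinase ERK1, had 9.83, 9.95 and 10.17 in NP1867 tumours, against 10.09, 10.40 and 10.87 in DMSO tumours. It was at -0.41 on the log2 scale (SE 0.13, adjusted p = 0.393), and -0.27 without tumours 6 and 23. Dusp4, a phosphatase that removes the activating phosphates of MAP kinases, had 8.82, 9.10 and 9.49 in NP1867 tumours, against 9.06, 9.63 and 10.01 in DMSO tumours. The log2 fold change was -0.49 (SE 0.18, adjusted p = 0.438), and -0.57 without tumours 6 and 23.

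Adhesion molecules, Spn among them, had values on both sides. Of 23 tested integrins and adhesion molecules, 3 were lower and 1 higher at an unadjusted p under 0.05, and the median log2 fold change was 0.02, or -0.14 after centring and 0.26 without tumours 6 and 23. Itgb4, the integrin beta 4 chain that anchors epithelial cells to the basement membrane, had 6.30, 7.67 and 8.34 in NP1867 tumours, against 7.36, 8.24 and 8.64 in DMSO tumours. NP1867 tumours 26 and 47 gave its 2 lowest values, 6.40 and 6.30, and its log2 fold change was -0.77 (adjusted p = 0.449). Itgb4 was at -1.04 without DMSO tumours 6 and 23 and at -0.56 without NP1867 tumour 47. Cd99, a surface protein that leukocytes use to cross vessel walls, was at -0.54 (adjusted p = 0.583), and at -0.33 without DMSO tumour 23. Itgb3, the integrin beta 3 chain of platelets and vessels, was on the higher side at 0.72 (adjusted p = 0.524). Vcam1, a vessel and stromal ligand that holds passing leukocytes, had 8.01, 8.56 and 8.78 in NP1867 tumours, against 8.35, 8.97 and 9.73 in DMSO tumours. It was at -0.51 (SE 0.17, adjusted p = 0.393), and 5 of 6 DMSO tumours lay above every NP1867 tumour, tumour 6 being the exception.

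Matrix and vessel genes were high in some NP1867 tumours, with a wide spread between tumours of each group, and none passed. Col3a1, the collagen III chain made by fibroblasts, had 10.83, 12.50 and 14.998 in NP1867 tumours, against 9.79, 10.82 and 13.14 in DMSO tumours. Its means were 12.67 ± 1.68 in NP1867 tumours and 11.06 ± 1.17 in DMSO tumours (SD, n = 6 each). Its log2 fold change of 1.61 (SE 0.72, adjusted p = 0.587 in limma, exact permutation p = 0.0866) did not exceed this spread after adjustment, and the groups overlapped in most of their range. Col3a1 was at 2.24 without DMSO tumours 6 and 23 and at 1.15 without NP1867 tumour 47. NP1867 tumours 47 and 26 were highest, at 14.998 and 14.18, and DMSO tumour 6 came next, at 13.14.

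The same 3 tumours had the highest values of other stromal genes. Thy1, a surface protein of mouse T cells that fibroblasts also carry, reached 10.16 and 9.38 in NP1867 tumours 47 and 26 and 9.02 in DMSO tumour 6, while no other tumour exceeded 8.84. For Thy1 the log2 fold change was 0.78 (SE 0.32, adjusted p = 0.523). Pecam1, the junction protein CD31 of endothelial cells, reached 9.05 and 9.04 in NP1867 tumours 47 and 26 and 8.56 in DMSO tumour 6, with a log2 fold change of 0.77 (adjusted p = 0.606). Over the list of fibroblasts and extracellular matrix, 3 of 19 tested genes were higher and 0 lower at an unadjusted p under 0.05. Over all genes 4.83% were higher and 2.83% lower. Positive values were found for 15 genes of the list (78.9%), against 63.8% of all genes. The median log2 fold change was 0.35, against 0.10 over all genes. After centring it was 0.20, against -0.06 over all genes, and without tumours 6 and 23 it was 0.51, against 0.25 over all genes. Of the 23 vessel genes 21 had positive values (91.3%, against 63.8% of all genes), with a median of 0.31. This median was 0.16 after centring, against -0.06 over all genes, and 0.44 without tumours 6 and 23, against 0.25. At an unadjusted p under 0.05, 2 vessel genes were higher and 1, Vcam1, lower. The 2 were Pecam1 and F13a1, which is taken up below with the myeloid genes. The mean log2 level of the fibroblast list ran from 7.87 to 9.48 in NP1867 tumours and from 7.74 to 8.73 in DMSO tumours, and that of the vessel list from 7.23 to 8.38 in NP1867 tumours and from 7.23 to 7.91 in DMSO tumours. The part of fibroblast and vessel content in the other results was not tested.

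**Figure D3:**
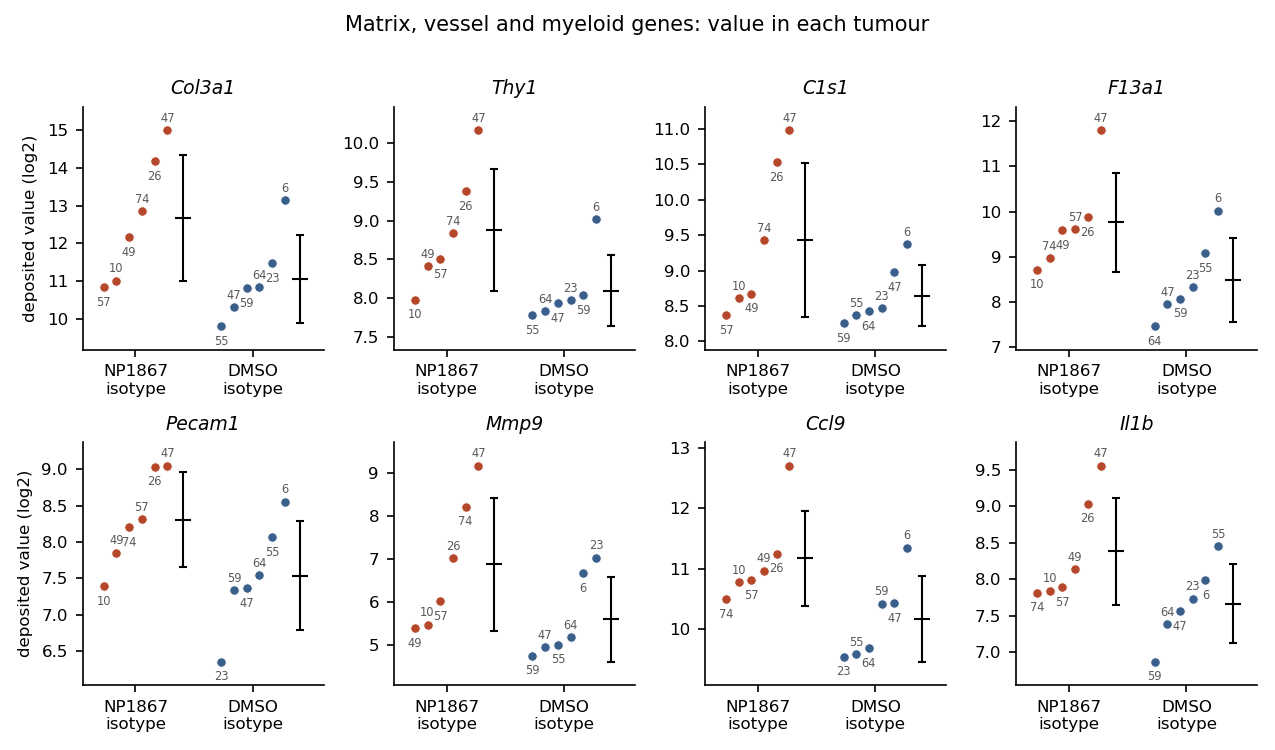
Deposited log2 value of 8 matrix, vessel and myeloid genes (vertical axis) in each NP1867 isotype tumour (left, red) and DMSO isotype tumour (right, blue), numbered as in the titles; the bar is the mean with 1 SD (n = 6). NP1867 tumour 47 is the highest of all 12 tumours for each of the 8 genes, and DMSO tumour 6 is the highest or next to the highest of its group.

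Myeloid and complement genes included several values near or above 1, and none passed. F13a1, the coagulation factor XIII chain that macrophages make, stood at 8.72, 9.60 and 11.79 in NP1867 tumours, against 7.46, 8.20 and 10.02 in DMSO tumours. All 6 NP1867 tumours lay above the DMSO mean, and the log2 fold change was 1.27 (SE 0.50, adjusted p = 0.463). F13a1 was at 1.62 without DMSO tumours 6 and 23 and at 0.87 without NP1867 tumour 47. Ccl9, a chemokine for monocytes and dendritic cells, had 10.50, 10.89 and 12.70 in NP1867 tumours, against 9.55, 10.05 and 11.35 in DMSO tumours, a mean difference of 1.0 on the log2 scale (adjusted p = 0.438). It was at 0.69 without NP1867 tumour 47. Ccr2, the receptor by which monocytes leave the marrow, was at 0.54 (adjusted p = 0.636). Over the list of chemokines that attract monocytes and neutrophils, 2 of 18 tested genes, Ccl9 and Ccr2, were higher and 0 lower at an unadjusted p under 0.05, and the median was 0.32, or 0.44 without tumours 6 and 23.

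Macrophage genes had values on both sides. Of 28 tested genes of macrophages and monocytes, 16 had positive values, 1 was higher and 2 lower at an unadjusted p under 0.05, and the median was 0.06, or -0.09 after centring and 0.19 without tumours 6 and 23. The list of alternatively activated macrophages had 13 of 16 positive values (81.25%) and a median of 0.25. That of classically activated macrophages had 11 of 17 (64.7%) and a median of 0.18, where 63.8% of all genes had positive values. These medians were 0.09 and 0.02 after centring, and 0.50 and 0.36 without tumours 6 and 23. Csf1r, the receptor macrophages need to survive, was at -0.01, and Cd68, a macrophage lysosomal protein, at 0.20, or 0.25 and 0.46 without tumours 6 and 23. Mertk, a receptor for dying cells on macrophages, had 4.95, 5.54 and 5.97 in NP1867 tumours, against 5.76, 6.09 and 6.45 in DMSO tumours (log2 fold change -0.59, adjusted p = 0.524). Lilra5, an activating receptor of myeloid cells, had 4.34, 4.61 and 5.15 in NP1867 tumours, against 4.71, 5.36 and 6.62 in DMSO tumours. Between the groups it was at -0.82 (adjusted p = 0.393), and -0.44 without tumours 6 and 23. Among 16 tested neutrophil genes 11 had positive values (68.75%, against 63.8% of all genes), and 1 had an unadjusted p under 0.05. Values of this list ran from -0.71 to 1.28. Its median was 0.15, or 0.0006 after centring and 0.41 without tumours 6 and 23. Mmp9, a matrix-cutting protease that the fibroblast list holds too, was at 1.28 and S100a8 at 1.03. They were at 0.82 and 0.56 without NP1867 tumour 47, and at 1.90 and 1.52 without DMSO tumours 6 and 23.

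Of the 22 tested complement genes, 3 were higher and 1 lower at an unadjusted p under 0.05. Over all genes 4.83% were higher and 2.83% lower. Positive values were found for 17 complement genes (77.3%, against 63.8% of all genes), and values ran from -0.80 to 1.05. The list's median was 0.22, or 0.06 after centring and 0.43 without tumours 6 and 23. C2, a protease of the classical pathway, was at 1.05 (adjusted p = 0.471), C1s1, the protease that starts that pathway, at 0.79 (adjusted p = 0.636, and 0.48 without NP1867 tumour 47) and Cd55, which protects cells from complement, at 0.84. Cd81, a tetraspanin of the B cell coreceptor, was at -0.30 (adjusted p = 0.587). Of 8 tested lipid genes 6 had positive values (75%, against 63.8% of all genes). The median of the 8 was 0.14, or -0.01 after centring and 0.50 without tumours 6 and 23. At an unadjusted p under 0.05, 2 lipid genes were higher and 0 lower. They were Abca1, which exports cholesterol from cells, at 0.91 (adjusted p = 0.438) and Lbp, the lipopolysaccharide-binding protein, at 1.42 (adjusted p = 0.636). Lbp was at 0.91 without NP1867 tumour 47 and at 2.17 without DMSO tumours 6 and 23.

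No T cell or cytotoxic gene passed in either direction. Of 14 tested genes of the T cell receptor and its coreceptors, 1 had an unadjusted p under 0.05, namely Thy1, and 9 had negative values with a median of -0.14. This median was 0.30 without tumours 6 and 23. Cd3e, a signalling chain of the T cell receptor, had 4.30, 5.81 and 6.88 in NP1867 tumours, against 4.91, 5.96 and 6.84 in DMSO tumours, a log2 fold change of -0.19 (95% interval -0.91 to 0.52), or 0.17 without tumours 6 and 23. Cd8a, the coreceptor of cytotoxic T cells, had 3.68, 4.93 and 5.64 in NP1867 tumours, against 3.96, 5.27 and 6.62 in DMSO tumours, a log2 fold change of -0.48 (95% interval -1.17 to 0.21, adjusted p = 0.692). It was at -0.23 without tumours 6 and 23. Both intervals include a rise and a fall.

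The 11 tested cytotoxic genes had 0 with an unadjusted p under 0.05 and a median of -0.13, which was 0.19 without tumours 6 and 23. Gzmb and Prf1, the granzyme and the pore protein of killer cells, were at 0.28 and 0.24, and NP1867 tumours 26 and 57 were above all DMSO tumours for both. Ifng, the interferon made by activated T and natural killer cells, was at -0.67 (95% interval -1.47 to 0.13, adjusted p = 0.638), and at -0.12 without tumours 6 and 23. In DMSO tumour 23 Ifng had its highest value, 6.03, on 12 counts. Natural killer genes had 0 of 14 with an unadjusted p under 0.05 and a median of 0.04, or -0.12 after centring and 0.20 without tumours 6 and 23, and their activating receptor Ncr1 was at 0.03, or 0.23 without these tumours. Genes of checkpoints and co-stimulation had 0 of 23 and a median of -0.01, which was 0.39 without tumours 6 and 23. Pdcd1, which encodes PD-1, was at -0.25 (-0.049 without tumours 6 and 23), and Cd274, which encodes its ligand PD-L1, at 0.30. Regulatory T cell genes had 9 of 10 positive values and a median of 0.28, or 0.50 without tumours 6 and 23, with Foxp3, their transcription factor, at 0.29 on 4 to 31 counts (0.53 without tumours 6 and 23). Il2ra was the 1 gene of that list with an unadjusted p under 0.05.

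Antigen presentation genes had medians on both sides of 0. The 16 tested genes of MHC class I and peptide loading had 0 with an unadjusted p under 0.05 and a median of 0.07, which was -0.08 after centring and 0.15 without tumours 6 and 23. H2-K1 and H2-D1, the classical class I heavy chains of the mouse, were at 0.18 (95% interval -0.19 to 0.55) and 0.12 (-0.18 to 0.43), and the peptide transporter Tap1 at 0.18. H2-D1 had 12.90, 13.40 and 13.58 in NP1867 tumours, against 13.03, 13.21 and 13.45 in DMSO tumours. The 9 tested class II genes had 0 and a median of -0.19, which was 0.13 without tumours 6 and 23. Cd74, the invariant chain that guards the class II groove, was at -0.35, H2-Eb1 at -0.21 and Ciita, the master regulator of class II genes, at 0.36. Without tumours 6 and 23 they were at 0.079, 0.12 and 0.57. The highest H2-Eb1 value, 11.54, was that of DMSO tumour 23.

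Interferon-induced genes leaned to the positive side without a gene that passed. Of 28 tested type I interferon-stimulated genes 25 had positive values, 89.3% against 63.8% of all genes, with a median of 0.21 against 0.10, and 0 had an unadjusted p under 0.05. After centring the list's median was 0.05, against -0.06 for all genes, and without tumours 6 and 23 it was 0.30, against 0.25. Isg20, an RNA-degrading enzyme, was at 0.42, Herc6, the mouse ligase that attaches ISG15, at 0.61 and Isg15 itself at 0.29. Without tumours 6 and 23 Herc6 was at 0.40 and Isg15 at 0.49. The mean log2 level of these 28 genes ran from 7.99 to 9.29 in NP1867 tumours and from 7.68 to 8.84 in DMSO tumours, so the groups overlapped widely. Of 27 interferon-gamma response genes, 1 had an unadjusted p under 0.05, which was Jak1, and the median was 0.21. Cxcl9 and Cxcl10, the chemokines by which interferon calls in T cells, were at -0.09 and 0.21, or 0.23 and 0.48 without tumours 6 and 23. Sensors of nucleic acid, which can set off interferon when DNA or RNA is out of place, had 0 of 26 with an unadjusted p under 0.05 and a median of 0.10, or -0.05 after centring and 0.24 without tumours 6 and 23, and Tmem173, which encodes STING, was at 0.04, or 0.18 without these tumours.

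No gene of DNA damage or proliferation passed. The 20 tested genes of DNA damage, p53 and apoptosis had a median of 0.07, which was -0.08 after centring, and the 17 of proliferation and tumour cells a median of 0.02, which was -0.13 after centring and 0.17 without tumours 6 and 23. Tnfrsf12a, the receptor for TWEAK, was the 1 gene of both lists with an unadjusted p under 0.05, at -0.39 (SE 0.15, adjusted p = 0.438), below the DMSO mean in 6 of 6 tumours. Birc5, a survival protein of dividing cells, had 8.29, 8.46 and 8.69 in NP1867 tumours, against 8.20, 8.404 and 8.54 in DMSO tumours, a log2 fold change of 0.09 (95% interval -0.18 to 0.35). Trp53 was at -0.09, and the DMSO mean there rested on tumour 23 at 10.06, with 8.95 the next highest; without tumours 6 and 23 Trp53 was at 0.26. Txnip, which limits glucose uptake and binds thioredoxin, had 10.21, 10.53 and 10.86 in NP1867 tumours, against 9.59, 10.12 and 10.40 in DMSO tumours. Txnip was at 0.50 (SE 0.16, adjusted p = 0.393), and 0.42 without tumours 6 and 23. Epcam, the epithelial marker, was below the level for testing.

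**Figure D4:**
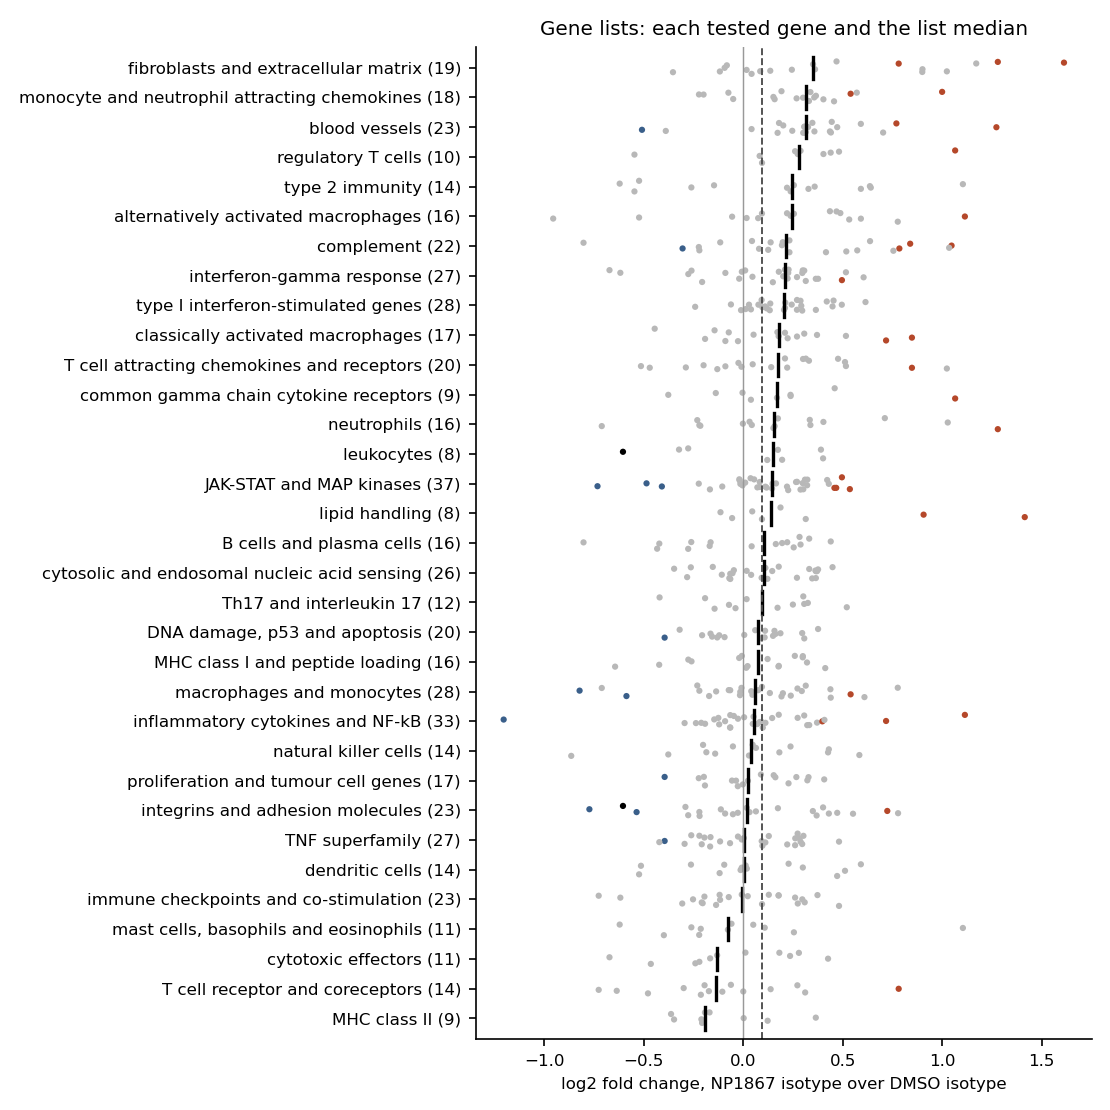
Log2 fold change, NP1867 isotype over DMSO isotype (horizontal axis), of each tested gene (points) in the lists with 8 or more tested genes (rows, number tested in brackets); heavy ticks are list medians and the dashed line is the median of all 600 genes, 0.10. Black is Spn, red and blue are genes with an unadjusted p under 0.05 that were higher or lower, and list medians run from -0.19 (MHC class II) to 0.35 (fibroblasts and extracellular matrix).

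The anti-PD-1 tumours gave the same comparison in 12 tumours that share none with it. They came from the same kinds of cells, so here too the drug and a chance difference between cultures cannot be told apart. DMSO anti-PD-1 tumours 11 and 37 had 153211 and 106186 counts, and no NP1867 anti-PD-1 tumour had fewer than 200000. Between these anti-PD-1 groups limma called 0 of 600 genes (0%), with 62 higher (10.3%) and 7 lower (1.17%) at an unadjusted p under 0.05, 69 in all (11.5%), and a lowest adjusted p of 0.154. This split was 27 higher and 21 lower after centring, and 25 and 23 after quantile normalisation. Without the tumours under 200000 counts it was 54 higher and 10 lower, with a lowest adjusted p of 0.358 in limma. The median log2 fold change was 0.27, against 0.03 after centring, -0.01 after quantile normalisation and 0.22 without the tumours under 200000 counts. Spn was at 8.34 ± 0.14 in NP1867 anti-PD-1 tumours and 8.67 ± 0.12 in DMSO anti-PD-1 tumours (SD, n = 6 each). The log2 fold change of -0.34 (SE 0.11, adjusted p = 0.248) had the sign found under isotype, all 6 NP1867 tumours lay below the DMSO mean, and the highest NP1867 tumour, 8.54, just exceeded the lowest DMSO tumour, 8.52. The difference between both Spn values was -0.27 (95% interval -0.59 to 0.05, adjusted p = 0.995 in limma).

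In the fit of all 24 tumours, other lead genes had like values under the 2 antibodies. Sigirr was at -0.59 under isotype and -0.64 under anti-PD-1, where it was 1 of 8 genes whose groups did not overlap (1.33%). Il1rn was at 1.11 and 1.27, Il2ra at 1.07 and 1.16, Txnip at 0.50 and 0.57, Jak1 at 0.50 and 0.55, Dusp4 at -0.49 and -0.50, and Itgb4 at -0.77 and -0.87. Of the 25 genes with the lowest p under isotype, 24 had the same sign under anti-PD-1, and Lilra5 did not. Of the 46 genes with an unadjusted p under 0.05, 43 had the same sign and 16 also had an unadjusted p under 0.05 there. Over all genes 431 of 600 agreed in sign, 71.8%, where 63.8% of values were positive under isotype and 85.7% under anti-PD-1. Across the 600 genes, which are not independent and share their tumours and scaling, Pearson's r was 0.466 and Spearman's rho 0.427. Under anti-PD-1 Col3a1 was at 0.94, F13a1 at 0.73, Lbp at 0.39 and Vcam1 at -0.12, each nearer 0 than under isotype.

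**Figure D5:**
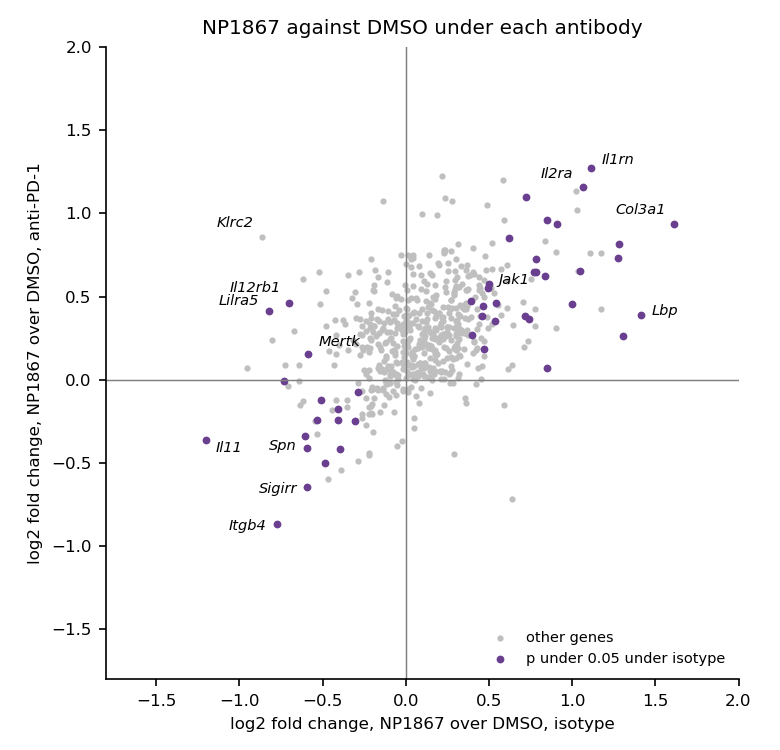
Log2 fold change of each of the 600 genes, NP1867 over DMSO, in isotype tumours (horizontal axis) and in anti-PD-1 tumours (vertical axis); purple points are the 46 genes with an unadjusted p under 0.05 under isotype. Of these, 43 have the same sign on both axes, and Lilra5, Il12rb1 and Mertk lie at the upper left.

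The difference between the NP1867 effects of both antibodies was tested for each gene, and limma called 0 of 600 (0%), with a lowest adjusted p of 0.995. All 11 genes with an unadjusted p under 0.05 (1.83%) were lower under isotype than under anti-PD-1. Without the tumours under 200000 counts there were 7 such genes, 4 higher and 3 lower under isotype, and with array weights 4 higher and 16 lower. Lilra5 was at -0.82 under isotype and 0.41 under anti-PD-1, a difference of -1.23 (SE 0.40). Il12rb1, a chain of the interleukin 12 receptor of T and natural killer cells, was at -0.70 and 0.46, a difference of -1.17 (SE 0.41). Xcr1, a receptor of the dendritic cells that prime cytotoxic T cells, was at -0.51 and 0.45. These isotype values leaned on the DMSO tumours of few counts: without tumours 6 and 23 they were -0.44 for Lilra5, -0.39 for Il12rb1 and -0.20 for Xcr1.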

How the data were processed

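RNA of formalin-fixed CT26 tumours was counted with a NanoString nCounter panel for mouse cancer immunity, per the labels' protocols from 3 sections of 10 um and 100 ng of RNA a tumour. The log2 values of 750 genes in 24 tumours are as the authors deposited them. Each value was, within 0.05 of a whole count, a whole number times 1 factor per tumour; how the factors were set is not given in the sources used here. Mice were randomised on day 7 at about 50 mm3, and the tumours taken lay near their group's mean volume, so p values cover tumours chosen in that way.

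Genes averaging log2 of 20 or more were fitted with limma 3.58.1 in R 4.3.3: 4 group means, 24 tumours, 20 residual degrees of freedom, empirical Bayes with a mean trend. P values are two-sided, adjusted by Benjamini-Hochberg over 600 genes, with a threshold of 0.05. The exact permutation test used all 924 assignments of 6 against 6 tumours. No 2 of the 12 tumours held identical values. The fit was also run on simulated data with independent normal noise and the same SD for all tumours of a gene. That setting lacks the unequal spread of tumours and the scaling shared by genes, so it does not check the fit for these. Members, gene lists (39, of which 36 had tested genes) and tests were chosen with earlier results of these data known. Lists share genes. The genes named come from the 25 with the lowest p, up to 5 of the lowest p in each list and a fixed set of 30 genes. That set holds immune genes and also Col3a1, Pecam1, Epcam, Birc5 and Trp53. Genes lowest in p for the difference between antibodies were added. Symbols were checked against RefSeq names of GRCm38.p6: 736 matched, 8 as older symbols, 6 not. Lists of skeletal muscle, skin and erythrocytes had 0 genes in the table, so these tissues were not checked. Alternative settings were centring, quantile normalisation, no filter, a filter at 50, a fit of only these 12 tumours, robust and trend-free empirical Bayes, array weights, Ptprc, factor or total as a covariate, 10 added before the logarithm, limma-voom on the recovered counts, no tumour under 200000 counts, and each tumour left out.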

Additional observations from a re-analysis of the deposited data

Results flagged for a closer look

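In 160 sets of 6 values, 1 for each group and named gene, 8 had a highest or lowest tumour whose gap to the next, as a share of the group's range, was past Dixon's 95% critical value; chance gives about 1 in 20 sets. Among NP1867 isotype tumours, tumour 47 was highest for the chemokine Ccl9 (12.7, next 11.25) and the macrophage gene Cd68 (10.99, next 9.953), tumour 26 was lowest for Cd99 (8.687, next 9.451) and tumour 57 was lowest for the class I gene H2-D1 (12.9, next 13.35). Among DMSO isotype tumours, tumour 23 was lowest for Ikbkb (7.149, next 7.813) and for the interferon receptor chain Ifnar2 (5.77, next 7.587) and highest for Ikzf2, a transcription factor of regulatory T cells (6.536, next 5.136), and tumour 6 was highest for Thy1 (9.021, next 8.037). Tumours 23 and 6 are the DMSO isotype tumours with the fewest counts.

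Klrc2, a receptor of natural killer cells, was below the DMSO mean in 6 of 6 NP1867 tumours under isotype (log2 fold change -0.8644) and above it in 6 of 6 under anti-PD-1 (0.8556). The difference was -1.72 (adjusted p = 0.995 in limma). Without tumours 6 and 23 the isotype value of Klrc2 was -0.07.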

How the results depend on the processing

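The count of genes called, 1, was 0 after centring each tumour on its median, 0 after quantile normalisation, 0 in the fit of only these 12 tumours, 2 with Ptprc as a covariate (Sigirr and Spn) and 13 with array weights (7 higher, 6 lower). It was 1 under the other settings, including each tumour left out in turn. The 2 lists that hold Spn, leukocytes and adhesion molecules, became 0 after centring and quantile normalisation. The cause was not tested. Genes with an unadjusted p under 0.05, 29 higher and 17 lower, were 79 and 14 with tumours under 200000 counts left out, 13 and 18 without NP1867 tumour 47, 16 and 17 without NP1867 tumour 26 and 69 and 14 without DMSO tumour 6. The difference between antibodies had 0 genes called under each setting run. No paired analysis was possible because the isotype groups share just 1 tumour number, which the labels tie to no litter or batch.

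Of 76 genes, 59 kept their sign under all settings run. After centring and quantile normalisation the sign turned for Ptprc (-0.033 and -0.059), H2-D1 (-0.032 and -0.038), Tmem173 (-0.11 and -0.13), Ncr1 (-0.13 and -0.16) and Birc5 (-0.065 and -0.070). Without the tumours of few counts it turned for Cd3e (0.17), Cd4 (0.31), H2-Eb1 (0.12), Cd74 (0.079), Cxcl9 (0.23), Csf1r (0.25) and Trp53 (0.26). With array weights it turned for Cd4 (0.10), Gzmb (-0.093), Prf1 (-0.21), Tap1 (-0.0081), H2-Eb1 (0.036), Ifit1 (-0.18), Csf1r (0.090) and Trp53 (0.29). With Ptprc as a covariate it turned for Tmem173 (-0.046) and Ncr1 (-0.033), with the factor for Cd4 (0.11), Cxcl9 (0.011) and Csf1r (0.051), with the total for Cd4 (0.064) and Trp53 (0.011) and in limma-voom for Csf1r (0.075). With single tumours left out, Cd3e ran from -0.42 to 0.093, Cd4 from -0.29 to 0.27, Cd68 from -0.018 to 0.31, Csf1r from -0.23 to 0.13, Cxcl9 from -0.46 to 0.32, H2-Eb1 from -0.51 to 0.24, Ncr1 from -0.13 to 0.24, Ptprc from -0.055 to 0.33, Tmem173 from -0.12 to 0.19 and Trp53 from -0.21 to 0.16. In tumour 23, 3 counts correspond to 4.03 on the log2 scale, so genes near that level are poorly measured there.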
